A study of Mus musculus with 4 samples.

Results

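The cells described here were venous endothelial cells of the mouse submandibular salivary gland, the cells that line its venules and veins. They were chosen by their transcript counts, so the genes of the rule below are described here. They stayed in the fits and in the p-value adjustment, and the counts of called genes leave them out. A cell barcode was kept if it held at least 500 UMIs (unique molecular identifiers, 1 for each transcript captured), at least 300 genes and at most 15% of its UMIs from mitochondrially encoded genes. It counted as blood endothelium with at least 4 UMIs of Pecam1, Cdh5, Egfl7 and Cldn5 together and with none of Ptprc (leukocytes), Pdgfra (fibroblasts) or Prox1 (lymphatic endothelium). It counted as venous with at most 1 UMI of the arterial genes Sema3g, Gja4 and Gja5 together, at least 1 UMI of Selp or Ackr1 and at least 1 UMI of Vwf. Of 39843 cells that passed the filter, 19527 were blood endothelium, and 371 of these were venous. The ligated library held 115 venous cells, and mock 1, 2 and 3 held 38, 81 and 137. The other 19156 blood endothelial cells, among them arterial and capillary cells, served for comparison.

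The ligated library came from female C57BL6/J mice whose submandibular and sublingual ducts had been shut by a metal clip for 14 days. The mock libraries came from female C57BL6/J mice whose ducts were exposed at surgery and not clipped. Glands were digested, epithelial cells (EpCAM) and red blood cells (Ter119) were depleted with magnetic beads, and dead cells were removed before capture in 10x Genomics droplets. There were 1 ligated library and 3 mock libraries, and the study asks how the stroma of an obstructed gland differs from that of a gland with open ducts. No age, genetic change or drug is given for either group, and no label says that each library came from a separate animal, so p-values measure only the spread between these libraries, which may be technical.

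Venules and small veins are where leukocytes leave the blood. Their lining cells store P-selectin (Selp) and von Willebrand factor (Vwf) in Weibel-Palade bodies, carry the chemokine scavenger Ackr1, and show E-selectin (Sele) and Vcam1 when activated. COUP-TFII (Nr2f2) is the transcription factor that keeps veins from taking an arterial, Notch-driven programme. Arteries and capillaries are instead marked by Notch ligands and targets and by proteins for gas and fatty acid exchange such as Car4, Cd36 and Gpihbp1.

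The libraries held 80187555 UMIs (ligated) and 29897488 to 56932041 UMIs (mock), and any 2 of them shared 11 to 61 cell barcodes, at most 0.634% of the smaller library. The deposited files name Cell Ranger 7.0.0 for mock 2 and 3, whereas the ligated library and mock 1 carry version 6.0.1. Mock 2 and 3 were the closest pair of libraries: the chi-square between their venous sums was 2.56 for each degree of freedom, against 5.98 to 13.4 for the other pairs. Mock 2 and 3 differed by more than the counting error of UMIs. Variation between cells adds to this value, so it does not tell whether they are separate animals. They were kept as separate samples, as they are labelled. The version splits the mock group and goes with the ligated library, so values of mock 1 are given throughout.

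Venous cells of the ligated library were shallower and richer in mitochondrial transcripts than those of the mock libraries. Their median depth was 4211 UMIs, against 5772.5, 5403 and 5172 UMIs in mock 1, 2 and 3. Mitochondrially encoded genes took a median of 6.23% of their UMIs, against 3.36, 4.05 and 3.75%, while other blood endothelium had 3.27% in the ligated library and 2.26, 2.19 and 2.34% in the mock libraries. Summed markers of T or NK cells, fibroblasts and macrophages were also higher in them. The 6 T or NK cell markers summed to 193 CPM (UMIs of a gene scaled to the total of the sum it belongs to) in ligated venous cells, with none of the 6 at 0, against 21.9, 3.91 and 7.06 CPM in mock 1, 2 and 3, where Cd3e and Cd3d had no UMI. The fibroblast markers summed to 110.1 CPM, against 8.77, 17.6 and 9.42 CPM, with Pdgfra at 0 by the rule. The macrophage markers summed to 98.1 CPM, against 0, 21.5 and 50.6 CPM. In other blood endothelium of the ligated library the same 3 lists stood at 227, 158 and 133 CPM. Ccl5 is 1 of the 6 T or NK cell markers and gave 82 of their 112 UMIs in ligated venous cells. Arterial markers summed to 82.6 CPM, against 8.77, 39.1 and 45.9 CPM, and mural markers to 141 CPM, against 26.3, 80.1 and 122 CPM. Erythroid markers went the other way, at 79.1 CPM, against 114, 131 and 6343 CPM. B cell markers were at 0 in venous cells of all 4 libraries. Glial markers summed to 3.44 CPM in the ligated library and 7.06 to 8.77 CPM in the mock libraries. The part that these transcripts have in the results below was not tested, except where a value is given without the cells that carry them.

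The markers that were named with the cell type and not used by the rule were present. Lrg1, a secreted glycoprotein of venules, had a UMI in 86.1% of ligated venous cells and in 94.7, 74.1 and 74.5% of mock 1, 2 and 3 venous cells, at medians of 4211 to 5772.5 UMIs per cell. In T or NK cells, which should lack it, the share was 1.26% in the ligated library and 0 to 0.125% in the mock libraries, at medians of 4750 to 6618 UMIs. Its level was 1244 CPM in ligated venous cells and 1843, 547 and 489 CPM in mock 1, 2 and 3, so that mock 1 and the ligated library lay above the other 2. Slco2a1, the prostaglandin transporter, had a UMI in 84.3% of ligated venous cells and in 89.5, 92.6 and 92.0% of mock venous cells. The capillary carbonic anhydrase Car4 had one in 2.61% of ligated and 5.26, 11.1 and 13.9% of mock venous cells, against 41.3% and 68.9, 67.4 and 64.3% of other blood endothelium. The first pair of levels is a description, since both genes came with the label.

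Among the genes of the rule, Vwf had a median of 3 UMIs per venous cell in the ligated library, against 5.5, 4 and 3 in mock 1, 2 and 3, with single cells of up to 51 UMIs. Selp and Ackr1 were both present in 48 of the 115 ligated venous cells and in 20 of 38, 37 of 81 and 50 of 137 mock venous cells. Selp alone admitted 51 cells in the ligated library and 15, 40 and 73 in the mock libraries, and Ackr1 alone admitted 16, against 3, 4 and 14. Members just inside the threshold, with 1 UMI of Selp and Ackr1 together, had 919 CPM of Lrg1 in the ligated library and 676, 274 and 411 CPM in mock 1, 2 and 3. Members with at least 2 UMIs of these genes and at least 2 of Vwf had 1450 CPM, against 2215, 665 and 579 CPM. Just outside, the 117 ligated cells with Selp or Ackr1 but no Vwf had 297 CPM of Lrg1, and the 50, 117 and 138 such mock cells had 274, 83.1 and 157 CPM. Lrg1 in these 3 groups was thus lowest in the cells without Vwf, in each library. Groups cut another way were not ordered like this: the 13 ligated members with 1 UMI of Vwf and at least 2 of Selp and Ackr1 had 869 CPM, and the 3, 14 and 21 such mock members 1608, 345 and 279.6 CPM. Cells outside only through a UMI of Ptprc, Pdgfra or Prox1 had 599 CPM in the ligated library and 1327, 377 and 362 CPM in mock 1, 2 and 3.

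Selp and Sele, the genes of P-selectin and E-selectin, lie in the selectin gene cluster on chromosome 1 of the mm10 build (GRCm38), Sele at 164048234 to 164057677 and Selp at 164115264 to 164150026, both on the plus strand. Selp chose the cells, and Sele, which the rule did not use, was among the 12 genes with the highest fold in the comparison that follows. The 250 bases before each start are printed, from RefSeq on GRCm38.p6. Capitals mark AGGAAG, or CTTCCT where it lies on the other strand, a 6-base form of the GGAA core that ETS factors bind. The motif was chosen after the sequences were read.
Selp, chr1:164115014-164115263, plus strand: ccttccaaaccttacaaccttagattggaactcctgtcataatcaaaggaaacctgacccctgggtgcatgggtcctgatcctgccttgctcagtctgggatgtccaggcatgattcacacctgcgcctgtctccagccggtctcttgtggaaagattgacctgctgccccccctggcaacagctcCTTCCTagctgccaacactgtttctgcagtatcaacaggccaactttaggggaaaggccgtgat
Sele, chr1:164047984-164048233, plus strand: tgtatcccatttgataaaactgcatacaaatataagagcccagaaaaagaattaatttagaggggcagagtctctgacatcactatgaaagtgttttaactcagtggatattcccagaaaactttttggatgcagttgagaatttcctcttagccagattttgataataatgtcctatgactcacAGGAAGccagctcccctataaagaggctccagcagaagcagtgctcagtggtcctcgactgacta
Each window held the motif 1 time, and 29.5% of 32851 RefSeq promoter windows of the same length held it on either strand. A match is a description of the letters and not a binding site.

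Venous cells made up a larger share of blood endothelium in the ligated library than in any mock library, and about the same share of all cells. Of blood endothelial cells, 3.00% were venous in the ligated library (exact binomial 95% interval 2.48 to 3.59%), against 1.44% (1.02 to 1.97%), 1.47% (1.17 to 1.82%) and 1.82% (1.53 to 2.14%) in mock 1, 2 and 3. When every cell was thinned to 2000 UMIs, the shares were 2.04% in the ligated library and 1.04, 0.722 and 1.15% in the mock libraries. This left out 14 shallower venous cells of the ligated library and 3, 1 and 0 of mock 1, 2 and 3, beside 635 and 120, 485 and 1059 other blood endothelial cells. With at least 2 UMIs asked of both parts of the venous gate, they were 1.70%, against 1.02, 0.943 and 1.05%. Of all filtered cells, however, venous cells were 0.864% in the ligated library and 0.828, 0.876 and 1.08% in the mock libraries, inside the mock range. The blood endothelial cells that form the first denominator were 3832 of 13304 cells in the ligated library and 2635 of 4589, 5516 of 9251 and 7544 of 12699 cells in the mock libraries. These intervals cover counting error only, and with 1 library against 3 no exact permutation test can give a p below 0.25.

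**Figure D1:**
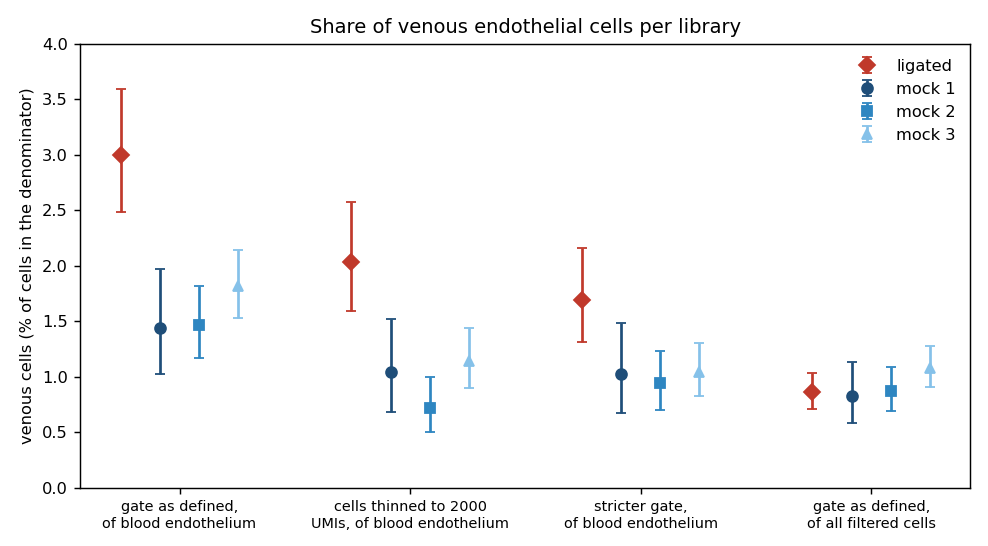
Share of venous cells per library, in percent of the cells named under each group of points, for the ligated library (diamonds) and mock 1, 2 and 3 (circles, squares, triangles). Points are single libraries and bars are exact binomial 95% intervals. The ligated share of blood endothelium (3.00%) lies above all mock shares (1.44 to 1.82%), whereas its share of all filtered cells (0.864%) lies within theirs (0.828 to 1.08%).

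Venous cells were first compared with the other blood endothelial cells of the same libraries, to describe what sets them apart beyond the 3 genes that chose them. Counts were summed per library and class and fitted with edgeR's quasi-likelihood F test with the library as a block and Benjamini-Hochberg adjustment over all genes fitted. Of the 12919 genes outside the rule, venous cells had 1107 genes higher (8.57% of the genes tested) and 1389 lower (10.8%) at an adjusted p under 0.05. CPM in this comparison are scaled over all 8 sums, so they differ slightly from those given above and in later comparisons. Means are over the 4 libraries with their SD. Without the library block the counts were 456 and 338, and DESeq2 called 936 and 757. Venous cells were the deeper class by median UMIs in each library, and the part of depth was not tested.

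Pleiotrophin led the genes that were higher. Ptn, which encodes this heparin-binding growth factor, had 139, 259.6, 225 and 187 CPM in venous cells, against 6.84, 1.28, 1.81 and 1.56 CPM in other blood endothelium in the order ligated, mock 1, mock 2 and mock 3 (log2 fold change 6.22 ± 0.24 (SE), adjusted p = 1.55e-27). Every venous value lay above every other value. Bmp4, a bone morphogenetic protein, averaged 107 ± 55.9 CPM in venous cells and 2.95 ± 1.07 CPM in other blood endothelium (log2 fold change 5.08 ± 0.23 (SE), adjusted p = 1.27e-24). Fgl2, a prothrombinase-like protein of endothelium and macrophages, averaged 149 ± 26.4 CPM in venous cells and 3.68 ± 3.49 CPM in other blood endothelium (log2 fold change 5.49). The cytoskeletal and membrane proteins Wipf3, Pgm5, Myof and Plekha7, the protocadherin Pcdh7, the aminopeptidase Anpep and the adhesion receptor Adgrg6 completed the 12 highest with Sele and the unnamed transcript Gm42949. Their log2 fold changes lay between 5.08 (Bmp4) and 6.22 (Ptn). Being higher in all 4 libraries was a condition for naming them.

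The venous identity list without the rule's genes had 12 of 15 members higher and 1 lower, with a median log2 fold change of 2.31 against -0.05 over all genes tested. Of all genes tested 8.57% were higher and 10.8% lower. Nr2f2 averaged 349 ± 64.2 CPM in venous cells and 65.7 ± 7.28 CPM in other blood endothelium (log2 fold change 2.40 ± 0.10 (SE), adjusted p = 9.38e-26). Il6st, the signal-transducing receptor of the IL-6 family, averaged 1105 ± 173 CPM in venous cells and 223 ± 34.3 CPM in other blood endothelium (log2 fold change 2.31), and the IL-1 receptor Il1r1 174 ± 59.1 CPM in venous cells and 61.8 ± 3.26 CPM in other blood endothelium (log2 fold change 1.45). Emcn, a sialomucin used as a marker of veins and capillaries, was the 1 member that was lower, at 1578 ± 274 CPM in venous cells and 2246 ± 502 CPM in other blood endothelium (log2 fold change -0.49). Plvap, the diaphragm protein of fenestrae, averaged 2932 ± 393 CPM in venous cells and 3098 ± 553 CPM in other blood endothelium, and the venous ephrin receptor Ephb4 177 ± 43.2 CPM in venous cells and 143 ± 26.6 CPM in other blood endothelium. Neither passed the test, with adjusted p = 0.726 and 0.0554 in edgeR. The list was put together from textbook markers, Lrg1 and Slco2a1 among them, and was written with earlier results of these data known.

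Molecules for leukocyte adhesion split in direction. Sele had 52.5, 107, 120.1 and 96.1 CPM in venous cells, against 1.78, 1.95, 1.43 and 2.78 CPM in other blood endothelium (log2 fold change 5.52 ± 0.26 (SE), adjusted p = 2.94e-24), and groups did not overlap. Vcam1, the ligand of the leukocyte integrin VLA-4, averaged 219.8 ± 118 CPM in venous cells and 11.9 ± 3.81 CPM in other blood endothelium (log2 fold change 4.02 ± 0.17 (SE), adjusted p = 2.55e-26), and Icam1 162 ± 45.5 CPM in venous cells and 24.3 ± 5.52 CPM in other blood endothelium (log2 fold change 2.69). Jam2 was the remaining member of the 4 that were higher (log2 fold change 0.72). Jam3, a junctional adhesion molecule, averaged 92.2 ± 36.7 CPM in venous cells and 407 ± 40.1 CPM in other blood endothelium (log2 fold change -2.09 ± 0.13 (SE), adjusted p = 7.20e-19), and Podxl, the anti-adhesive sialomucin podocalyxin, 438 ± 139 CPM in venous cells and 991 ± 369 CPM in other blood endothelium (log2 fold change -1.16). In all 4 of 13 members were higher and 5 lower, with a median of -0.12, beside 8.57% higher and 10.8% lower over all genes tested.

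Of 12 chemokine, scavenger and cytokine genes 2 were higher and 3 lower, beside 8.57% and 10.8% of all genes tested. Cxcl12, which retains CXCR4-bearing leukocytes, averaged 403 ± 227 CPM in venous cells and 2334 ± 1809 CPM in other blood endothelium (log2 fold change -2.43 ± 0.12 (SE), adjusted p = 1.32e-22), and its scavenger Ackr3 67.3 ± 42.8 CPM in venous cells and 183 ± 59.7 CPM in other blood endothelium (log2 fold change -1.41). Il15 averaged 84.0 ± 50.9 CPM in venous cells and 30.2 ± 15.1 CPM in other blood endothelium (log2 fold change 1.43). Of the NF-kB and TNF response list 7 of 15 were higher and 2 lower, led by the TNF receptor adaptor Traf1 at 39.2 ± 17.5 CPM in venous cells and 6.81 ± 2.44 CPM in other blood endothelium (log2 fold change 2.41).

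Genes of antigen presentation moved in opposite directions by class. MHC class II genes were higher in 6 of 7 members, with a median of 1.72. The shares over all genes tested, for this and the next lists, were 8.57% higher and 10.8% lower. Of 6 class II genes tested in ligated against mock, 4 stood in another cell class at over 20 times their highest venous level. The part of such cells in the class II values was not tested. Cd74, the invariant chain, had 354, 129.8, 757 and 703 CPM in venous cells, against 158, 31.9, 112 and 113 CPM in other blood endothelium in the order ligated, mock 1, mock 2 and mock 3 (log2 fold change 2.20 ± 0.15 (SE), adjusted p = 7.20e-18). It was higher in venous cells of each library, although the venous value of mock 1 lay below the value of other endothelium in the ligated library. Class I genes were lower in 8 of 13 members and higher in none, and B2m averaged 1658 ± 163 CPM in venous cells and 2214 ± 219 CPM in other blood endothelium (log2 fold change -0.42). Interferon-stimulated genes were lower in 18 of 27 members and higher in none, with a median of -0.63. Rsad2, the antiviral enzyme viperin, averaged 70.0 ± 24.7 CPM in venous cells and 778 ± 178 CPM in other blood endothelium (log2 fold change -3.46 ± 0.14 (SE), adjusted p = 3.49e-26), Ifit2 18.5 ± 14.8 CPM in venous cells and 98.9 ± 18.3 CPM in other blood endothelium and Isg15 97.9 ± 15.4 CPM in venous cells and 247 ± 36.5 CPM in other blood endothelium. Complement genes were higher in 6 of 11 members and lower in none. Cd55, which dissolves complement convertases on the cell surface, averaged 76.1 ± 10.7 CPM in venous cells and 2.59 ± 0.67 CPM in other blood endothelium (log2 fold change 4.83 ± 0.25 (SE), adjusted p = 2.56e-22), and complement factor B (Cfb) 43.1 ± 22.99 CPM in venous cells and 3.68 ± 2.12 CPM in other blood endothelium (log2 fold change 3.54).

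The storage and release machinery of Weibel-Palade bodies was higher in 6 of 10 members and lower in 2, beside 8.57% and 10.8% of all genes tested. Myrip, which ties the granules to actin, averaged 105 ± 68.0 CPM in venous cells and 8.66 ± 4.65 CPM in other blood endothelium (log2 fold change 3.54 ± 0.18 (SE), adjusted p = 1.79e-22), and its partner Rab27a 37.1 ± 15.2 CPM in venous cells and 10.46 ± 3.26 CPM in other blood endothelium (log2 fold change 1.79). The granule tetraspanin Cd63 averaged 57.6 ± 33.2 CPM in venous cells and 19.6 ± 16.4 CPM in other blood endothelium (log2 fold change 1.61). Haemostasis and vessel tone genes were higher in 10 of 21 members and lower in 3. The protein C receptor Procr averaged 52.6 ± 13.3 CPM in venous cells and 15.7 ± 5.41 CPM in other blood endothelium (log2 fold change 1.78), coagulation factor VIII (F8) 50.0 ± 25.7 CPM in venous cells and 14.8 ± 7.70 CPM in other blood endothelium (log2 fold change 1.78), and the ATP-degrading enzyme Entpd1 625 ± 126 CPM in venous cells and 309.8 ± 17.7 CPM in other blood endothelium (log2 fold change 0.98). The endothelin receptor Ednrb went the other way, at 75.1 ± 67.7 CPM in venous cells and 341 ± 190.1 CPM in other blood endothelium (log2 fold change -2.12 ± 0.14 (SE), adjusted p = 1.09e-17). On the lipid mediator list 6 of 10 were higher and 3 lower. Cysltr1, a leukotriene receptor, averaged 280.3 ± 81.0 CPM in venous cells and 35.1 ± 7.19 CPM in other blood endothelium (log2 fold change 2.98 ± 0.11 (SE), adjusted p = 9.32e-29), and Ptafr, the receptor of platelet-activating factor, 10.3 ± 3.16 CPM in venous cells and 0.498 ± 0.0622 CPM in other blood endothelium (log2 fold change 4.22).

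Capillary and Notch lists were mostly lower. Of the capillary and fatty acid list 12 of 15 members were lower, against 10.8% of all genes tested, with a median of -1.64. Car4 averaged 31.7 ± 25.1 CPM in venous cells and 462 ± 161 CPM in other blood endothelium (log2 fold change -3.75 ± 0.17 (SE), adjusted p = 1.35e-24), Rgcc 191 ± 28.5 CPM in venous cells and 1951 ± 848 CPM in other blood endothelium (log2 fold change -3.20), and Gpihbp1, which anchors lipoprotein lipase in capillaries, 119 ± 29.7 CPM in venous cells and 1009.6 ± 240.4 CPM in other blood endothelium (log2 fold change -3.08). Meox2, a homeobox factor counted on the same list, was higher, at 45.5 ± 5.46 CPM in venous cells and 3.45 ± 0.811 CPM in other blood endothelium (log2 fold change 3.66 ± 0.28 (SE), adjusted p = 1.30e-15). Notch genes were lower in 7 of 12 members, among them the ligand Dll4 at 8.55 ± 6.88 CPM in venous cells and 62.0 ± 19.6 CPM in other blood endothelium (log2 fold change -2.85 ± 0.24 (SE), adjusted p = 6.34e-14) and the target Hey1 at 1.45 ± 1.72 CPM in venous cells and 32.2 ± 5.23 CPM in other blood endothelium (log2 fold change -4.05). The tip-cell gene Esm1 averaged 7.43 ± 10.7 CPM in venous cells and 195 ± 91.8 CPM in other blood endothelium (log2 fold change -4.67 ± 0.24 (SE), adjusted p = 2.13e-22) and the VEGF receptor Kdr 714 ± 123 CPM in venous cells and 1982 ± 802 CPM in other blood endothelium (log2 fold change -1.41). The rule admits at most 1 UMI of 3 arterial genes, so arterial genes are not independent of it.

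Among the 12 lowest genes were also the sialyltransferase St8sia6, the actin-binding Nebl, Ssu2, the phosphatase Alpl, Efhd1, the carbonic anhydrase Car7, Tgfb2 and Eps8l2, with log2 fold changes between -5.56 (St8sia6) and -3.58 (Eps8l2). The haemoglobin gene Hbb-bs was the remaining one, at 42.3, 58.2, 44.5 and 4348 CPM in venous cells, against 1329, 8277, 5009.9 and 6364 CPM in other blood endothelium, so mock 3 stood apart from the other venous sums.

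Matrix genes were divided, where 8.57% of all genes tested were higher and 10.8% lower. Basement membrane genes were lower in 10 of 16 members and higher in 2, with collagen IV chains Col4a1 at 820.0 ± 398 CPM in venous cells and 2118 ± 735 CPM in other blood endothelium (log2 fold change -1.38 ± 0.13 (SE), adjusted p = 8.58e-13) and Col4a2 at 516 ± 268 CPM in venous cells and 1267 ± 516 CPM in other blood endothelium (log2 fold change -1.29). Interstitial and matricellular genes were higher in 9 of 19 and lower in 4. Bgn, the proteoglycan biglycan, averaged 345 ± 134 CPM in venous cells and 24.7 ± 21.5 CPM in other blood endothelium (log2 fold change 4.01 ± 0.18 (SE), adjusted p = 1.35e-24), matrix Gla protein Mgp 1264 ± 346 CPM in venous cells and 209.8 ± 187 CPM in other blood endothelium (log2 fold change 2.90) and elastin Eln 352 ± 142 CPM in venous cells and 106 ± 3.19 CPM in other blood endothelium (log2 fold change 1.64). The inhibitor Timp3 averaged 562 ± 100.0 CPM in venous cells and 1735 ± 624 CPM in other blood endothelium (log2 fold change -1.57). In the arterial gate, Mgp stood at 1162 CPM in the ligated library and 752, 484 and 486 CPM in mock 1, 2 and 3 (per total UMIs), between venous cells at 1696 and 1364, 1137 and 849 CPM and the remaining endothelium at 268 and 10.8, 12.95 and 14.8 CPM.

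Transcription factors included Nr2f2, Meox2 and Foxc1 among 8 of 31 that were higher, and Tcf15, Hlx, Klf2 and Klf4 among 17 that were lower. Over all genes tested the shares were 8.57% and 10.8%. Klf2, which responds to fluid shear, averaged 488 ± 227 CPM in venous cells and 839.9 ± 236 CPM in other blood endothelium (log2 fold change -0.86). All 20 ribosomal protein genes on the list were higher, with a median of 0.71, and Rps20 averaged 4206 ± 295 CPM in venous cells and 2102 ± 237 CPM in other blood endothelium (log2 fold change 1.003 ± 0.11 (SE), adjusted p = 1.54e-10). The water channel Aqp1 averaged 1535 ± 701 CPM in venous cells and 218 ± 288 CPM in other blood endothelium (log2 fold change 3.52 ± 0.19 (SE), adjusted p = 7.25e-22).

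**Figure D2:**
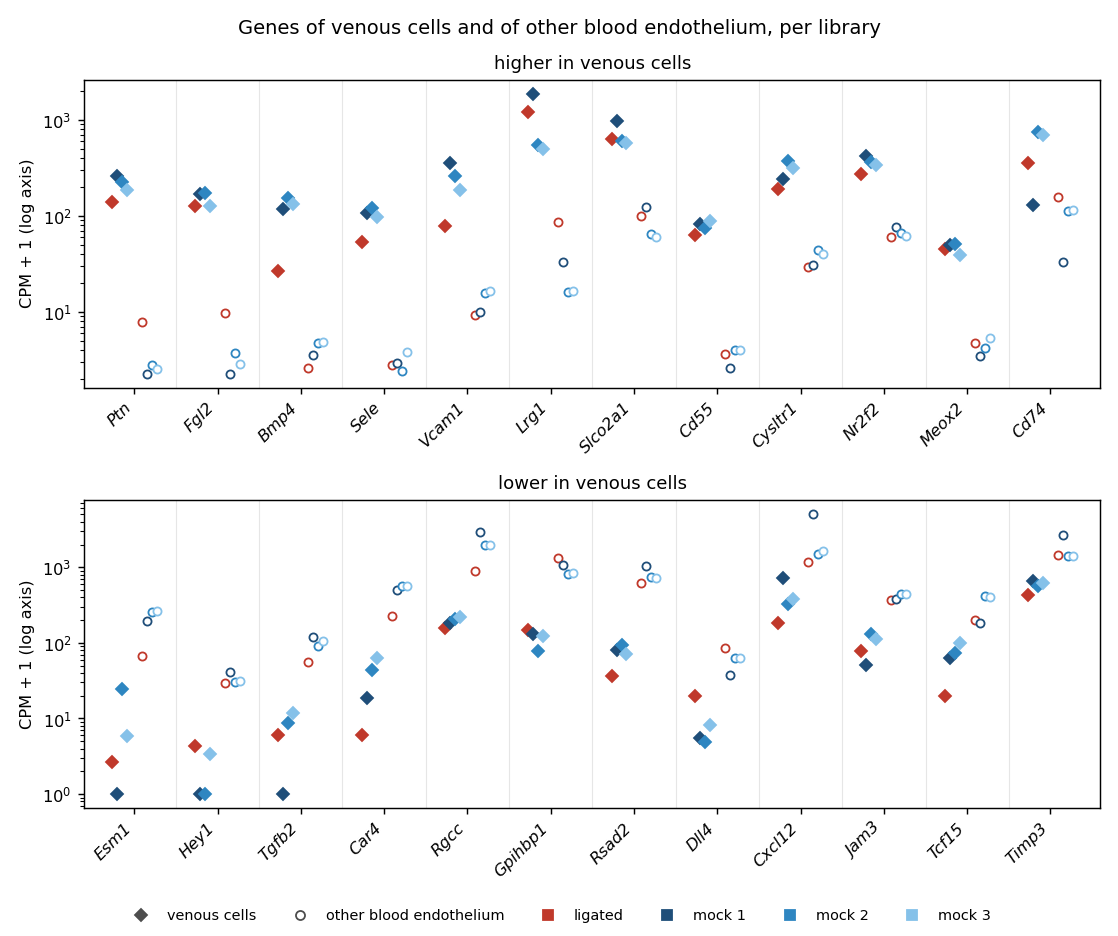
Levels of 24 genes in venous cells (filled diamonds) and other blood endothelium (open circles), as CPM plus 1 on a log axis, with 1 point per library and colours for the ligated library and mock 1, 2 and 3. The 12 genes of the upper panel have higher venous values in each library, as for Sele (52.5 to 120.1 CPM against 1.43 to 2.78 CPM), and those of the lower panel have smaller ones, as for Car4 (5.08 to 61.3 CPM against 224 to 566 CPM).

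Venous cells of the ligated library were then compared with those of the mock libraries. Of 8045 genes outside the rule, 2 were higher (0.0249%) and 1 was lower (0.0124%) in the ligated library at an adjusted p under 0.05 in edgeR's quasi-likelihood test, 0.0373% in either direction. The spread in this fit is that among the mock libraries, and the lone ligated library is taken to vary as they do. An unadjusted p under 0.05 was reached by 355 genes higher (4.41%) and 500 lower (6.22%). The ligated value lay above the mock range for 26.9% of genes and below it for 24.5%. The count of calls depended on the mock libraries: without mock 1 it was 483 higher and 720 lower, without mock 2 it was 13 and 48, and without mock 3 it was 14 and 44. DESeq2 called 2 higher and 4 lower. Below, members of a list are therefore read against the mock range and its background share.

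Fabp4, the fatty acid-binding protein of capillary and venous endothelium on chromosome 3 (10204088 to 10208576, minus strand, mm10), was the gene that fell. It had 2117 CPM in the ligated library, against 8048, 9172 and 10837 CPM in mock 1, 2 and 3 (log2 fold change -2.14 ± 0.21 (SE), adjusted p = 0.00697). The ligated value lay below every mock value, and mock 1 was near mock 2. The call held in 10 of 11 alternatives and ended with the stricter gate (adjusted p = 0.0616), and the range over them was 3.24e-47 to 0.0616. Fabp4 was also at 4663 CPM in the ligated library and 14761, 11430 and 11721 CPM in mock 1, 2 and 3 in endothelium outside the venous and arterial gates.

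The 2 genes that rose were Ccl5 and Cd52, which are genes of T and NK cells. Ccl5 had 142 CPM in the ligated library, against 14.0, 1.96 and 4.84 CPM in mock 1, 2 and 3 (log2 fold change 4.70 ± 0.50 (SE), adjusted p = 0.00697), and Cd52 98.5 CPM against 0, 3.92 and 2.42 CPM (log2 fold change 5.14 ± 0.55 (SE), adjusted p = 0.00697). In T or NK cells of the ligated library they stood at 8058 and 4358 CPM, and in its endothelium outside the venous and arterial gates at 169 and 106 CPM. Ccl5 is itself 1 of the T or NK cell markers, and Cd52 is on no marker list. Leaving out cells by these markers thus removes every cell with 2 or more UMIs of Ccl5, so a weaker Ccl5 result there was set in advance. Without cells that carried 2 or more UMIs of another class's markers, neither passed (adjusted p = 0.231 for Ccl5 and 0.0624 for Cd52), while the log2 fold changes were 3.70 for Ccl5 and 5.76 for Cd52. Both calls also ended with the stricter gate (adjusted p = 0.0662 and 0.138), at log2 fold changes of 4.49 for Ccl5 and 4.05 for Cd52. That of Cd52 ended in cells gated after thinning to 2000 UMIs, whose full counts were tested (log2 fold change 2.85). Over 11 alternatives the adjusted p ran from 2.22e-30 to 0.231 for Ccl5 and from 1.11e-18 to 0.283 for Cd52.

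Basement membrane genes had the highest list median in the fit over the 3 mock libraries, whereas over mock 1 alone MHC class II genes had the highest (1.37). Of 16 members tested 13 lay above the mock range, against 26.9% of all genes, and 1 lay below, with a median log2 fold change of 0.91 against -0.03 over all genes. None passed the adjusted test, and 7 had an unadjusted p under 0.05. Col4a1, the chain of collagen IV on chromosome 8 (11198423 to 11312826, minus strand), had 1441 CPM in the ligated library, against 694, 559 and 653 CPM in mock 1, 2 and 3 (log2 fold change 1.18 ± 0.25 (SE), adjusted p = 0.232). Col4a2, its head-to-head neighbour on the plus strand (11312805 to 11449287), had 926 CPM against 470.2, 309.6 and 400.4 CPM (log2 fold change 1.24 ± 0.30 (SE), adjusted p = 0.266). The annotated 5′ ends overlap on opposite strands. Each ligated value was higher than any mock value. The laminin chains Lamb1 and Lama4 had 183 CPM against 93.1, 56.8 and 70.2 CPM and 173 CPM against 79.1, 74.5 and 91.9 CPM, and the matricellular Sparcl1 962 CPM against 349, 502 and 483 CPM. Col18a1 had 82.9 CPM against 74.5, 19.6 and 10.9 CPM, so that mock 1 was close to the ligated library. Over mock 1 alone 13 of 16 members had a positive log2 ratio (5 CPM added), with a median of 0.45 against 0.03 over all genes. Without cells carrying other classes' markers the count above the mock range was 10 of 16, and with the stricter gate 13 of 16. The medians in these settings were 0.94 and 0.95. Fibroblast markers were higher in these cells as well (110.1 CPM against 8.77 to 17.6 CPM), and pooled fibroblasts carried Col4a1 at 0.983 and Lamb1 at 2.92 times the highest venous level. Their part in the result was not tested. Col4a1 was also lower in mock 2 and 3 than in mock 1 in the remaining endothelium, at 2952 CPM in the ligated library and 2843, 1718 and 1515 CPM in the mock libraries.

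Capillary and fatty acid genes had the lowest list median in the fit over the 3 mock libraries. Of 12 members 8 lay below the mock range, against 24.5% of all genes, and 1 lay above, with a median of -0.999. Beside Fabp4 these were led by Fabp5 at 96.8 CPM in the ligated library, against 331, 370.4 and 449 CPM in mock 1, 2 and 3 (log2 fold change -1.99 ± 0.37 (SE), adjusted p = 0.139). Cd36, the fatty acid translocase, had 72.6 CPM against 275, 188 and 204 CPM, Rbp7, a retinol-binding protein of capillaries, 86.4 CPM against 237, 198 and 360.5 CPM, and the transcription factor Tcf15 19.0 CPM against 65.2, 72.5 and 99.2 CPM. Car4 had 5.18 CPM against 18.6, 43.1 and 61.7 CPM. For each of these 6 genes the ligated library was the lowest of the 4. Over mock 1 alone 10 of 12 were lower, with a median of -0.87. The count below the mock range was 3 of 10 in cells gated after thinning to 2000 UMIs, where the median was -0.43 and those of MHC class II (-0.80), complement (-0.77) and glucocorticoid-responsive genes (-0.51) were lower. It was 6 of 11 without cells carrying other classes' markers, at a median of -1.30, and 6 of 11 with the stricter gate, at a median of -1.43.

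Venous identity genes outside the rule and adhesion genes were mostly at or below the low end of the mock range. Of the 15 identity genes 9 lay below and 2 above, against 24.5% and 26.9% of all genes, with a median of -0.45. The 2 above were Bst1, at 98.5 CPM in the ligated library against 74.5, 86.2 and 48.4 CPM in mock 1, 2 and 3, and Nrp2. Nrp2 had 556 CPM against 545, 513 and 434 CPM. Over mock 1 alone 12 of 15 were lower, at a median of -0.49. Vcam1, on chromosome 3 (116109949 to 116129688, minus strand), had 79.5 CPM in the ligated library, against 372, 263 and 185 CPM in mock 1, 2 and 3 (log2 fold change -1.75 ± 0.46 (SE), adjusted p = 0.278). Vcam1 had a UMI in 25.2% of ligated venous cells and in 52.6, 59.3 and 53.3% of mock venous cells, and after thinning to 2000 UMIs in 11.9% and 25.7, 32.5 and 22.6%. In T or NK cells the shares were 1.42% and 0.215 to 0.375%. Il1r1 had 98.5 CPM against 191, 243 and 175 CPM, Ephb4 119 CPM against 182, 216 and 204 CPM, and Nr2f2 276 CPM against 442, 370.4 and 337 CPM. Tll1, a metalloprotease, had 38.0 CPM against 41.9, 149 and 165 CPM, with mock 1 next to the ligated library. Lrg1 and Slco2a1 lay within the mock range, at 1249 CPM against 1955, 549 and 502 CPM and 653 CPM against 1005, 617 and 577 CPM.

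Of 12 adhesion genes 7 lay below the mock range and 1 above, with a median of -0.25. The shares of all genes were 24.5% below and 26.9% above, for this and the chemokine list that follows. The 1 above was Cd34, at 890 CPM in the ligated library against 740, 735 and 587 CPM in mock 1, 2 and 3. Sele had 53.6 CPM in the ligated library, against 112, 122 and 96.8 CPM in mock 1, 2 and 3 (log2 fold change -1.02 ± 0.35 (SE), adjusted p = 0.378), and a UMI in 12.2% of ligated and 26.3, 22.2 and 24.8% of mock venous cells. F11r, the junctional adhesion molecule A, had 76.0 CPM against 186, 202 and 181 CPM, and Podxl 252 CPM against 605, 459 and 472 CPM. Both ligated values were below every mock value. Icam1 lay within the mock range at 147 CPM against 233, 167 and 117 CPM. Over mock 1 alone 10 of 12 were lower. In cells gated after thinning to 2000 UMIs 5 of 12 lay below and 2 above, at a median of -0.17. Without cells carrying other classes' markers the counts were also 5 and 2, at a median of -0.21. Over 11 alternatives the log2 fold change ran from -1.44 to -0.60 for Sele and from -1.26 to -0.22 for Podxl. Among 8 chemokine and cytokine genes 6 lay below and Ccl5 above, with Cxcl12 at 188 CPM against 749, 327 and 386 CPM and Ackr3 at 25.9 CPM against 37.2, 99.9 and 110.1 CPM. In cells gated after thinning to 2000 UMIs 1 of 6 lay below and 2 above.

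**Figure D3:**
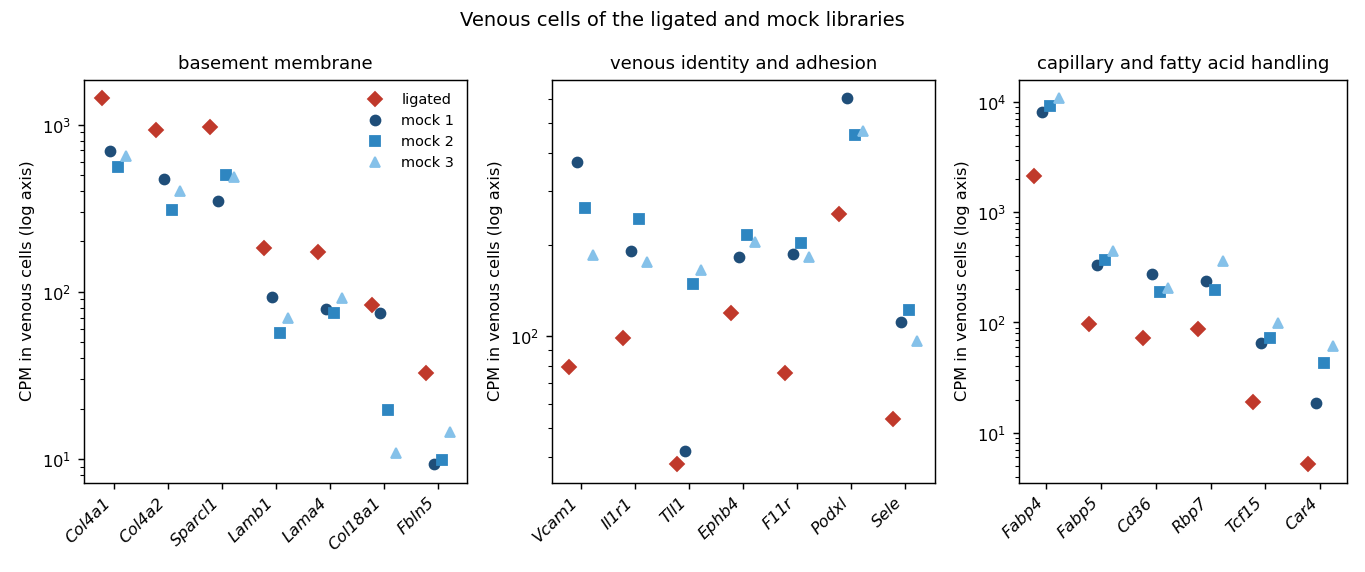
Levels in venous cells of 20 chosen genes from 4 lists, as CPM on a log axis, with 1 point per library (ligated as diamonds, mock 1, 2 and 3 as circles, squares and triangles). The ligated library is the highest of the 4 for the basement membrane genes shown, such as Col4a1 (1441 CPM against 559 to 694 CPM), and the lowest for the others shown, such as Fabp4 (2117 CPM against 8048 to 10837 CPM). Members of these lists that lay inside the mock range or on its other side are not shown.

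Genes of vessel growth and of Notch signalling differed by member. Aplnr, the apelin receptor of veins and sprouting capillaries, had 555 CPM in the ligated library, against 97.8, 190.1 and 167 CPM in mock 1, 2 and 3 (log2 fold change 1.84 ± 0.35 (SE), adjusted p = 0.146). Angpt2, an angiopoietin kept in Weibel-Palade bodies that opposes Tie2, had 39.7 CPM against 0, 5.88 and 7.26 CPM, and the angiopoietin receptor Tek (Tie2) 332 CPM against 433, 684 and 595 CPM. The VEGF receptor Flt1 had 1388 CPM against 2830.2, 2315 and 2243 CPM, and Vegfc 93.3 CPM against 107, 329 and 356 CPM, with mock 1 next to the ligated library. Of the 13 VEGF and angiopoietin genes 5 lay above and 5 below the mock range. The shares of all genes were 26.9% above and 24.5% below, for this and the Notch list. Of 9 Notch genes 6 lay above and 1 below, at a median of 0.69, and over mock 1 alone the median was 0.27. In cells gated after thinning to 2000 UMIs 3 of 7 lay above and 2 below, at a median of 0.29. With the stricter gate 4 of 8 lay above (median 0.46), and without cells carrying other classes' markers 5 of 8 (0.81). The target Hes1 had 175 CPM in the ligated library, against 69.8, 51.0 and 55.6 CPM in mock 1, 2 and 3 (log2 fold change 1.61 ± 0.31 (SE), adjusted p = 0.146), and the receptor Notch1 216 CPM against 168, 112 and 129 CPM.

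Of 17 BMP and TGF-beta genes 6 lay above and 5 below the mock range, near the 26.9% and 24.5% of all genes. Bmp4, one of the leading venous genes, had 25.9 CPM in the ligated library, against 121, 153 and 134 CPM in mock 1, 2 and 3 (log2 fold change -2.39 ± 0.40 (SE), adjusted p = 0.109). The activin subunit Inhbb had 43.2 CPM against 0, 3.92 and 7.26 CPM, and the signal transducers Smad1 and Smad5 140.0 CPM against 88.4, 52.9 and 62.9 CPM and 126 CPM against 51.2, 62.7 and 44.8 CPM. In haemostasis and vessel tone, Ednrb had 178 CPM in the ligated library, against 23.3, 49.0 and 55.6 CPM in mock 1, 2 and 3 (log2 fold change 1.93 ± 0.35 (SE), adjusted p = 0.139), thrombomodulin (Thbd) 183 CPM against 568, 404 and 349.6 CPM and endothelin 1 (Edn1) 27.6 CPM against 284, 102 and 55.6 CPM. Of these 18 genes 5 lay above and 7 below. The Weibel-Palade list had 4 of 8 above and 2 below. Of its members, Cd63 stood in pooled fibroblasts at 12.3 times its highest venous level, and their part in its values was not tested. Myrip had 24.2 CPM against 83.8, 182 and 138 CPM (log2 fold change -2.51 ± 0.51 (SE), adjusted p = 0.194), Rab27a 15.6 CPM against 41.9, 43.1 and 50.8 CPM, and Cd63 109 CPM against 37.2, 39.2 and 49.6 CPM.

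The remaining lists are given by their counts, beside the 26.9% and 24.5% of all genes. Interferon-stimulated genes were below the mock range in 11 of 27 members and above in 3, with a median of -0.24 that was -0.04 over mock 1 alone. In cells gated after thinning to 2000 UMIs the balance turned, with 4 of 24 below and 9 above and a median of 0.13. For MHC class II genes none of 6 lay outside the mock range, and the median of -0.56 was 1.37 over mock 1 alone, since mock 1 was the lowest library. MHC class I genes had 3 of 13 on each side, and immediate early genes 3 above and 6 below of 15. The NF-kB and TNF list had 5 of 13 above and 3 below, with Relb at 62.2 CPM against 32.6, 35.3 and 33.9 CPM and Nfkb2 at 55.3 CPM against 32.6, 31.4 and 22.98 CPM. GIMAP GTPases had 4 of 6 above and none below. Ribosomal protein genes had 2 of 20 above and 9 below at a median of -0.13. Endothelial transcription factors had 6 above and 9 below of 28, Ets1 at 558 CPM against 275, 253 and 315 CPM. Junction and caveola genes had 4 above and 6 below of 13, with the caveolar coat protein Cavin1 at 183 CPM against 344, 296 and 312 CPM and the tight junction protein Cgnl1 at 69.1 CPM against 27.9, 11.8 and 18.1 CPM. Counts above and below the mock range were 1 and 2 of 7 for complement, 5 and 4 of 11 for interstitial matrix, 5 and 1 of 11 for heat shock, 1 and 4 of 10 for glucocorticoid-responsive genes, 1 and 2 of 7 for oxidative stress, 3 and 4 of 12 for glycolysis and hypoxia, 2 and 2 of 7 for lipid mediators and 3 and 2 of 7 for the cell cycle.

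**Figure D4:**
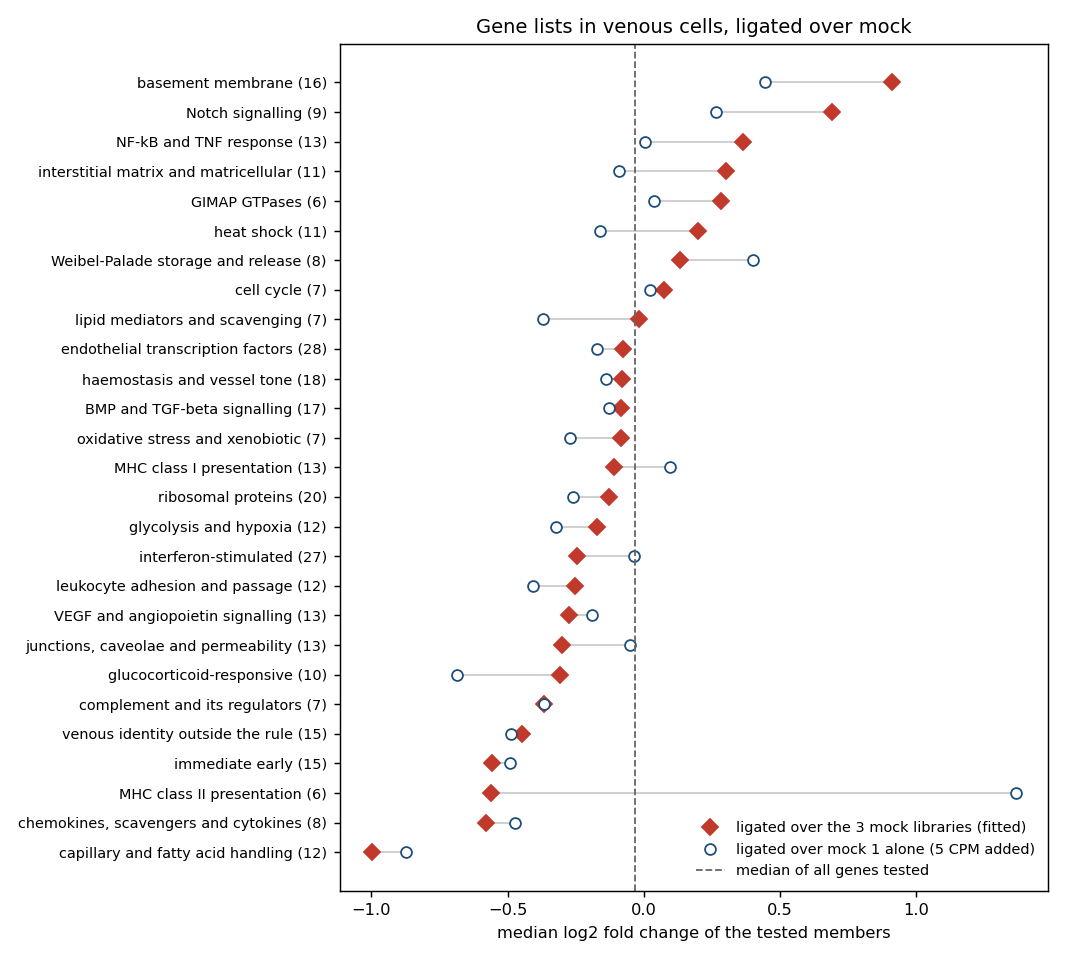
Median log2 fold change of the tested members of 27 gene lists in venous cells, ligated over the 3 mock libraries (diamonds) and ligated over mock 1 alone (open circles), with the number of tested members in brackets. The dashed line is the median of all genes tested (-0.03). Basement membrane (0.91) and capillary and fatty acid handling (-0.999) lie at the 2 ends of the diamonds, and MHC class II changes sign over mock 1.

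By size of change, the 12 highest genes past an unadjusted p under 0.05 and outside the mock range included, after Cd52 and Ccl5, the myeloid adaptors Tyrobp and Fcer1g, the leukocyte gene Hcls1, Mxra8, Marcksl1, Trp53i11, Gm26917, Cgnl1, Ednrb and the replication factor Mcm3. None but the first pair passed the adjusted test. Tyrobp and Fcer1g stood in macrophages at 42.0 and 33.4 times their highest venous level, and Hcls1 at 5.06 times. Trp53i11 had 213 CPM in the ligated library, against 18.6, 49.0 and 68.9 CPM in mock 1, 2 and 3 (log2 fold change 2.05 ± 0.41 (SE), adjusted p = 0.181), and Mcm3 63.9 CPM against 18.6, 9.80 and 21.8 CPM.

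The 12 lowest were mostly genes at which mock 1 and the ligated library were alike. In 9 of the 12 mock 1 stood under 25% of the mean of mock 2 and mock 3, against 6.97% of all genes tested. Camk1d, a calcium and calmodulin-dependent kinase, had 3.46 CPM in the ligated library, against 9.31, 1350.3 and 989 CPM in mock 1, 2 and 3, Lrmda 8.64 CPM against 14.0, 455 and 351 CPM, the synaptic scaffold Gphn 38.0 CPM against 46.5, 1227 and 829 CPM, the kinase Cdk8 41.5 CPM against 46.5, 1099 and 1026 CPM and 9530026P05Rik 5.18 CPM against 14.0, 284 and 187 CPM. For these genes the values followed the Cell Ranger version and the surgery cannot be told apart from it except over mock 1. The remaining ones were Chrm3, Wfdc12, Gm12185 and 0610043K17Rik. The 3 at which mock 1 did not stand apart were Slit3 at 3.46 CPM against 46.5, 54.9 and 67.7 CPM (log2 fold change -3.998 ± 0.65 (SE), adjusted p = 0.109), Slc2a13 at 1.73 CPM against 32.6, 54.9 and 60.5 CPM, and Cyp26b1 at 0 CPM against 18.6, 52.9 and 29.0 CPM. Cyp26b1, which degrades retinoic acid, had 0 UMIs in the ligated sum, where 3 UMIs over the library would be 5.16 CPM per total UMIs. Against that floor it was at least 6.37-fold lower than the mock mean of 32.9 CPM.

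The last comparison asked whether the difference between ligated and mock libraries was of another size in venous cells than in other blood endothelium. Here too there was 1 ligated library. The spread in this fit is that of the class difference among the mock libraries, and the ligated library is taken to vary as they do. With each library as a block, 46 of 13874 genes (0.332%) had a class by surgery term at an adjusted p under 0.05, 15 positive (0.108%) and 31 negative (0.223%). DESeq2 called 0 positive and 8 negative, and edgeR without the library block called none, with 301 genes at an unadjusted p under 0.05. Without mock 1 there were 24 positive and 106 negative, without mock 2 there were 2 and 22, and without mock 3 there were 2 and 17. A negative term can come from a lower value in ligated venous cells or from a higher value in other ligated endothelium, so both are given. The make-up of other blood endothelium also differed between libraries. Cells with more than 1 UMI of the arterial genes were 763 of its 3717 cells in the ligated library. In mock 1, 2 and 3 they were 414 of 2597, 690 of 5435 and 927 of 7407 cells. In the ligated library Cytl1 had 79.1 CPM in this arterial gate and 1.12 CPM in the remaining endothelium. The part of make-up in the terms was not tested.

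Several venous genes had higher levels in other blood endothelium of the ligated library. Ptn had 136 CPM in the ligated library and 254, 221 and 186 CPM in mock 1, 2 and 3 in venous cells, and 6.74 CPM and 1.29, 1.87 and 1.62 CPM in other blood endothelium (interaction log2 -2.68 ± 0.31 (SE), adjusted p = 6.16e-14). In T or NK cells, which should lack it, Ptn stood at 5.77 CPM in the ligated library and 0.136 to 0.708 CPM in the mock libraries, so its level in other endothelium was near that background. Aqp1 had 2387 CPM in the ligated library and 1719, 1009.8 and 919 CPM in mock 1, 2 and 3 in venous cells, and 639 CPM and 102, 63.6 and 62.0 CPM in other blood endothelium (interaction log2 -2.08 ± 0.24 (SE), adjusted p = 5.98e-15), so that both classes were higher in the ligated library, and other endothelium by more. In T or NK cells Aqp1 stood at 9.51 CPM in the ligated library and 0 to 0.708 CPM in the mock libraries. Fgl2 (-2.32), Lrg1 (-1.45), Bgn (-2.07), Mgp (-1.44) and Insr (-1.32) also had negative interaction log2 values and their highest level in other endothelium in the ligated library. Lrg1 had 1202 CPM in the ligated library and 1842, 532 and 493 CPM in mock 1, 2 and 3 in venous cells, and 83.5 CPM and 32.1, 15.7 and 16.0 CPM in other blood endothelium. Mgp had 1639.9 CPM in the ligated library and 1364, 1107 and 857 CPM in mock 1, 2 and 3 in venous cells, and 480.0 CPM and 157, 96.1 and 107 CPM in other blood endothelium, and in T or NK cells 978 CPM in the ligated library and 50.6 to 57.1 CPM in the mock libraries, at 5170 CPM and 601 to 695 CPM over all cells. Bgn stood at 176 CPM in the ligated library and 13.7 to 21.2 CPM in the mock libraries in T or NK cells, and at 55.4 CPM in other blood endothelium of the ligated library. In that library Mgp and Bgn were thus higher in T or NK cells than in other endothelium. The part of this background in their terms was not tested.

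For Cytl1, Slc6a6, Eln and Cyp26b1 the ligated value was the lowest in venous cells. Cytl1, a small secreted protein, had 23.3 CPM in the ligated library and 114, 70.4 and 97.5 CPM in mock 1, 2 and 3 in venous cells, and 19.9 CPM and 10.8, 4.66 and 5.69 CPM in other blood endothelium (interaction log2 -3.63 ± 0.43 (SE), adjusted p = 1.95e-13). The taurine transporter Slc6a6 had 103 CPM in the ligated library and 1035, 567 and 547 CPM in mock 1, 2 and 3 in venous cells, and 422 CPM and 1529, 777 and 757 CPM in other blood endothelium (interaction log2 -1.54 ± 0.28 (SE), adjusted p = 4.41e-05), so the ligated library was lowest in both classes and by more in venous cells. Elastin (Eln) had 189.6 CPM in the ligated library and 522, 371 and 302 CPM in mock 1, 2 and 3 in venous cells, and 108 CPM and 108, 107 and 106 CPM in other blood endothelium (interaction log2 -0.999 ± 0.22 (SE), adjusted p = 0.0036). In other endothelium the 4 libraries were alike. Cyp26b1 had 0 CPM in the ligated library and 17.5, 51.3 and 28.5 CPM in mock 1, 2 and 3 in venous cells, and 58.3 CPM and 97.1, 132 and 128 CPM in other blood endothelium, and its fitted term of -10.48 rests on a value of 0 and is no measure of size. The tetraspanins and related proteins Cd9 (-0.95) and Emp2 (-1.14) and the transcription factor Mecom (-0.94) also had negative terms. MHC class II genes Cd74 (-1.37), H2-Aa (-1.26) and H2-Eb1 (-1.39) did too, with mock 1 the lowest library in both classes. The part of transcripts from other cell classes in the class II terms was not tested. The haemoglobin genes Hba-a2 and Hba-a1 were called, and Hba-a2 had 9.98 CPM in the ligated library and 4.39, 30.4 and 743 CPM in mock 1, 2 and 3 in venous cells, and 421 CPM and 1764, 1049.9 and 1461 CPM in other blood endothelium, so that mock 3 stood apart, and without mock 3 the term was 0.44.

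Positive terms were fewer. Aplnr had 534 CPM in the ligated library and 92.1, 184 and 164 CPM in mock 1, 2 and 3 in venous cells, and 218 CPM and 106, 142 and 132 CPM in other blood endothelium (interaction log2 1.03 ± 0.21 (SE), adjusted p = 5.24e-04), the larger ligated excess being in venous cells. Angpt2 had 38.3 CPM in the ligated library and 0, 5.70 and 7.13 CPM in mock 1, 2 and 3 in venous cells, and 4.87 CPM and 4.47, 6.73 and 6.50 CPM in other blood endothelium (interaction log2 3.15 ± 0.69 (SE), adjusted p = 0.0041), and in venous cells this was 23 UMIs. Lamb1 had 176 CPM in the ligated library and 87.7, 55.1 and 69.0 CPM in mock 1, 2 and 3 in venous cells, and 154 CPM and 234, 96.6 and 93.6 CPM in other blood endothelium (interaction log2 0.99 ± 0.25 (SE), adjusted p = 0.0349), and the basement membrane collagen Col15a1 339 CPM in the ligated library and 307, 215 and 227 CPM in mock 1, 2 and 3 in venous cells, and 254 CPM and 842, 283 and 258 CPM in other blood endothelium (interaction log2 1.04 ± 0.23 (SE), adjusted p = 0.00505). In both, mock 1 was the highest library in other endothelium. The 6 largest at a mean of at least 20 CPM were the cytoskeletal regulator Dpysl3 (1.69), the glucosylceramide synthase Ugcg (1.66), the transcription factor Mlx (1.56), 4930523C07Rik (1.504), the RNA editing enzyme Adarb1 (1.43) and AY036118 (1.21). Ugcg had 101 CPM in the ligated library and 30.7, 39.9 and 27.3 CPM in mock 1, 2 and 3 in venous cells, and 28.9 CPM and 33.5, 28.3 and 27.9 CPM in other blood endothelium (interaction log2 1.66 ± 0.33 (SE), adjusted p = 5.24e-04). For Ugcg the other endothelium was alike in all 4 libraries and the ligated venous value lay above the 3 mock values.

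**Figure D5:**
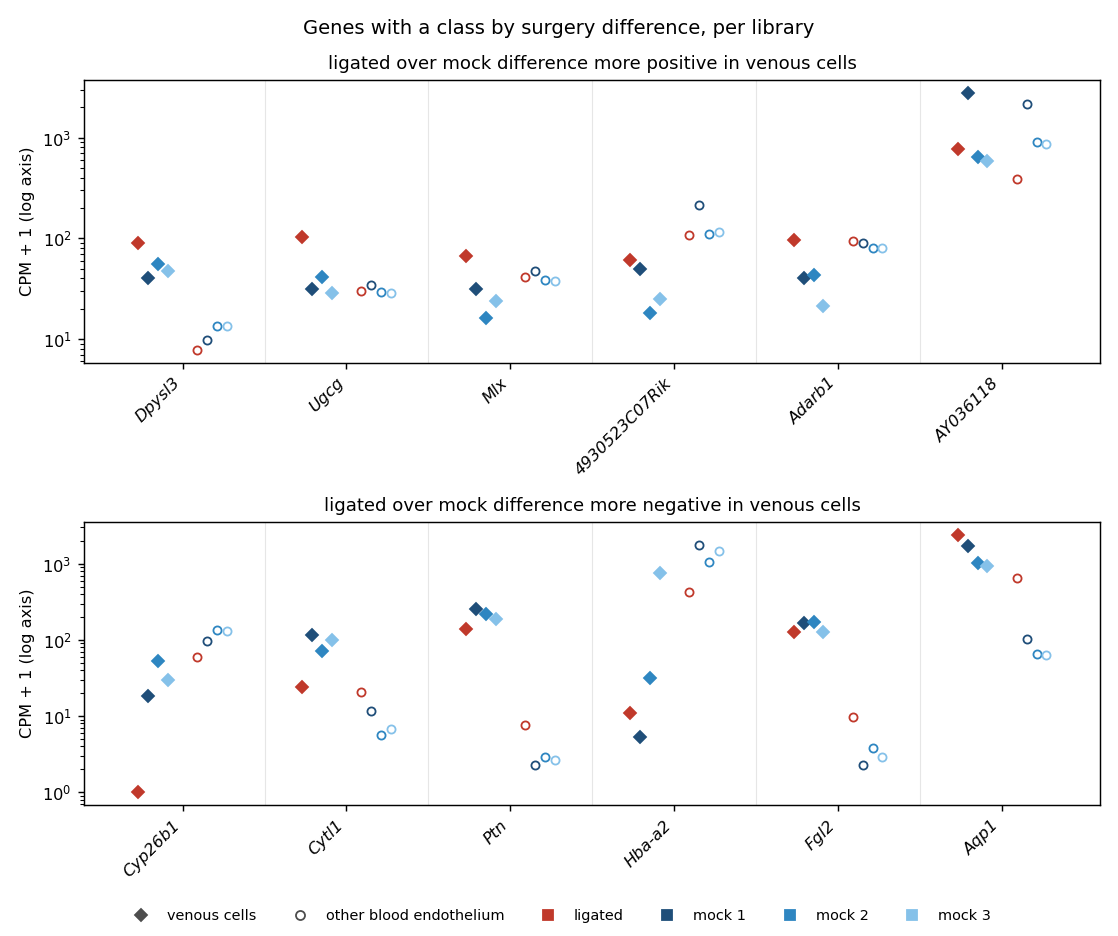
Levels of the 12 genes named by the rule for the interaction, in venous cells (filled diamonds) and other blood endothelium (open circles), as CPM plus 1 on a log axis, with 1 point per library. For Aqp1 the ligated library is higher in both classes (2387 CPM against 919 to 1719 CPM in venous cells, 639 CPM against 62.0 to 102 CPM in others), and for Ugcg in venous cells alone (101 CPM against 27.3 to 39.9 CPM).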

How the data were processed

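The deposited files hold raw UMI counts, 1 sparse matrix for each library, not normalized. Cell Ranger 6.0.1 wrote those of the ligated library and mock 1 and 7.0.0 those of mock 2 and mock 3, per the file headers. The submitters' processing notes name 7.0.1 of that tool, and mm10. How intronic reads were handled was not given in the sources used here. Genes were joined by ID over the 30406 IDs in all 4 feature lists.

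Doublets were not removed beyond the gate. Scrublet in scanpy 1.11.5 called 5.55, 1.63, 0 and 0% of cells in the ligated library and mock 1, 2 and 3, and these calls were not used. Removal of the top-scored cells was run as an alternative. Summed counts were tested with edgeR 4.0.16 in R 4.3.3 (glmQLFit, glmQLFTest, TMM, filterByExpr, Benjamini-Hochberg at 0.05), with DESeq2 1.42.0 as an alternative. SEs are the log2 fold change divided by the square root of F. In simulated counts the ligated against mock fit recovered 12 of 67 genes changed 2-fold, 48 of 67 changed 4-fold and 59 of 66 changed 8-fold. It also called 8 unchanged genes. The simulation gave all genes a dispersion of 0.05 and had no mock library that stood apart. In the data mock 1 lay further from mock 2 and 3 than these from each other, so the simulated recovery does not measure that in the data.

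Named genes were the 12 highest and 12 lowest log2 fold changes past an unadjusted p under 0.05 (ligated against mock, outside the mock range) or an adjusted p under 0.05 (venous against other, same direction in 4 libraries), and 6 each way for the interaction, at a mean of at least 20 CPM, plus up to 4 members of each of 27 lists. Further list members and further genes called in the interaction were chosen after their values were seen. The cell rule and the lists were chosen with earlier results of these data known. Gene positions are from GENCODE M21 on GRCm38. The single-gene results of 1 list member are not reported here.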

Additional observations from a re-analysis of the deposited data

Results flagged for a closer look

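The genes below were set apart because the difference between the ligated and mock libraries was not the same in venous cells and in other blood endothelium, by a test of that difference (edgeR's quasi-likelihood test of the class by surgery term, adjusted p under 0.05, the largest at a mean of at least 20 CPM). This test had 1 ligated library, which is taken to vary as the mock libraries do. The positive interaction log2 values were 1.69 for Dpysl3, 1.66 for Ugcg, 1.56 for Mlx, 1.504 for 4930523C07Rik, 1.43 for Adarb1 and 1.21 for AY036118. The negative ones were -10.48 for Cyp26b1, -3.63 for Cytl1, -2.68 for Ptn, -2.44 for Hba-a2, -2.32 for Fgl2 and -2.08 for Aqp1. Dpysl3 and Mlx had higher values in ligated venous cells than in any mock library. Dpysl3 stood at 89.8 CPM in the ligated library, against 39.5, 55.1 and 46.4 CPM in mock 1, 2 and 3, and Mlx at 66.5 CPM, against 30.7, 15.2 and 22.6 CPM. AY036118, a transcript of no stated function, was highest in mock 1 in both classes (2806 CPM in venous cells), so its term rests on that library as well.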

How the results depend on the processing

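No paired analysis was possible because there was 1 ligated library and no label pairs it with a mock library. In the fits of venous against other cells the library was the block. Without that replicate block they called 456 genes higher and 338 lower, and the interaction 0 and 0 (301 at an unadjusted p under 0.05). For ligated against mock, calls higher and lower were 103 and 224 with no filter on low counts, 0 and 0 with the stricter gate (edgeR, 611 genes at an unadjusted p under 0.05), 5 higher in cells thinned to 2000 UMIs, 0 higher and 1 lower without cells carrying other classes' markers (637 at an unadjusted p under 0.05), 4 lower in DESeq2 and 95 and 118 with a version term. Leaving out a mock library gave 13 to 483 higher and 44 to 720 lower. The reason was not tested, but fits without mock 1 or with a version term take their spread from mock 2 and mock 3. In each fit with thinning, the thinned counts only chose the cells, and the full counts of those cells were tested. DESeq2 called 757 genes lower in venous against other cells. For the interaction, calls were 0 and 8 in DESeq2, 8 and 20 after thinning and 5 positive without cells carrying other classes' markers, and leaving out a mock library gave 2 to 24 positive and 17 to 106 negative.

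The ratio of the ligated venous share to the mock mean was 1.90 of blood endothelium and 0.932 of all filtered cells. Of 98 genes named or at an unadjusted p under 0.05 on a list in ligated against mock, the direction turned for Rsad2 after thinning (1.496). In the interaction Hba-a2 turned with the stricter gate (2.11), thinning (0.71), doublet removal (0.98) and without mock 3 (0.44, and -3.45 without mock 1), Hba-a1 with the stricter gate (2.45), doublet removal (1.92) and without mock 3 (0.51, and -2.53 without mock 1), and Rgs5 after thinning (-1.75). Medians of lists over mock 1 alone and in the alternatives were chosen after seeing the data. No direction turned among 239 genes of venous against other cells. Depth limits all calls: venous sums held 583949 UMIs in the ligated library and 228066 to 853342 in the mock libraries.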

Other observations

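Some genes called in the class by surgery comparison lay on no list and were chosen after their values were seen. Car8, a carbonic anhydrase-related protein, had 18.3 CPM in the ligated library and 92.1, 133 and 136 CPM in mock 1, 2 and 3 in venous cells, and 85.3 CPM and 178, 181 and 163 CPM in other blood endothelium (interaction log2 -1.77 ± 0.41 (SE), adjusted p = 0.00798). Itgb4, the integrin subunit that binds laminin, had 161 CPM in the ligated library and 153, 114 and 102 CPM in mock 1, 2 and 3 in venous cells, and 40.6 CPM and 15.0, 13.6 and 13.1 CPM in other blood endothelium (interaction log2 -1.09 ± 0.25 (SE), adjusted p = 0.00804). Igfbp4, a binding protein of insulin-like growth factors, had 484 CPM in the ligated library and 96.5, 156 and 169 CPM in mock 1, 2 and 3 in venous cells, and 288 CPM and 34.4, 45.3 and 44.5 CPM in other blood endothelium (interaction log2 -1.06 ± 0.21 (SE), adjusted p = 4.32e-04), so that the ligated library was the highest in both classes. Zfp467, a zinc finger factor, had 31.6 CPM in the ligated library and 78.9, 64.7 and 67.8 CPM in mock 1, 2 and 3 in venous cells, and 48.3 CPM and 30.8, 36.7 and 41.0 CPM in other blood endothelium (interaction log2 -1.48 ± 0.37 (SE), adjusted p = 0.0266).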
